A study of Homo sapiens with 18 samples.

Results

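Metallothioneins are small, cysteine-rich proteins that bind zinc and copper in the cytosol and the nucleus. Their genes are classic targets of the zinc-sensing transcription factor MTF1, which binds short metal response elements in their promoters, and they are also known to respond to glucocorticoids and to oxidative stress. The set described here was given as 8 gene names of the human metallothionein cluster: MT2A, MT1A, MT1E, MT1F, MT1G, MT1L, MT1M and MT1X. These were matched by symbol among the 57500 genes of the count table, and a gene was kept when at least 3 libraries held at least 10 counts. That left 5 of the 8: MT2A, MT1E, MT1L and MT1X reached 10 counts in all 18 libraries, and MT1G reached it in 3. MT1A, MT1F and MT1M never exceeded 4, 7 and 5 counts in a library and are not described further. Of 8 other metallothionein loci, 7 were found in the table, and their highest count in any library was 4.

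The study asked how mitochondria, acetate as a source of acetyl groups and mitochondrial DNA each bear on gene expression in senescent cells. The 18 libraries came from IMR90, a human fetal lung fibroblast line, in 6 groups of 3. Prol cells were proliferating. Sen (IR) cells were made senescent by X-ray irradiation. The 4 remaining groups were irradiated and then given CCCP, an uncoupler of mitochondria, starting the day after irradiation. Per the study's methods, this step used cells engineered to clear their mitochondria once CCCP is given. The labels do not say whether the Prol and Sen (IR) libraries came from the engineered cells. A heat map legend in the study's review material marks its senescent cells, with and without CCCP, as engineered, and names no proliferating cells. The published legend of that panel also lists proliferative cells, without saying there whether they were engineered. The study's methods describe CCCP given to engineered cells that were either proliferating or irradiated. Sen (IR) + CCCP had no further addition, Sen (IR) + CCCP + acetate received sodium acetate, Sen (IR) + CCCP + mtDNA was transfected with mitochondrial DNA, and Sen (IR) + CCCP + acetate + mtDNA received both. The labels describe no group with a mock transfection, so mtDNA and the transfection itself cannot be told apart. Nor is there a CCCP-treated group that kept its mitochondria, so CCCP and the loss of mitochondria cannot be told apart either. The study's legends describe replicates as independent experiments, while the labels do not tie a library to a culture. The p-values of the main test, edgeR, thus rest on the spread between libraries within groups, estimated over the 6 groups together.

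Libraries held 24624886 to 46224280 counts on genes, and 16994 genes passed the filter on low counts. The 10 fibroblast markers were above 1 CPM (counts scaled to library size) in every library. Their summed level was not the same in each group: 37758 to 41492 CPM in Prol, 20811 to 25813 in Sen (IR), 6832 to 7158 in Sen (IR) + CCCP, 5443 to 5722 with acetate, 6173 to 6462 with mtDNA and 5187 to 5995 with both. The 6 epithelial markers summed to 0.944 to 3.87 CPM and the 6 immune markers to 0.780 to 2.89 CPM, with AIF1 at 0 throughout. The 6 endothelial markers summed to 168 to 374 CPM, and 1 of the 6 was above 1 CPM in every library. In bulk RNA, fewer cells of a type and less RNA per cell cannot be told apart.

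The 8 genes lie together on the long arm of chromosome 16, between positions 56608584 and 56684196 (GRCh38), a span of 75613 bp, and 1 of the 8, MT1G, is on the reverse strand. MT2A occupies chr16:56608584-56609497, MT1L chr16:56617563-56618680, MT1E chr16:56625475-56627112, MT1G chr16:56666730-56668065 and MT1X chr16:56682470-56684196. MT1L is annotated as a transcribed pseudogene. The coding sequences of the 5 genes are printed because they show how near these genes are to each other and what sets MT1L apart. Each is given 5′ to 3′ from the start codon to the stop codon, from the GENCODE annotation of GRCh38, with the matching exons for MT1L. Capitals mark bases that differ from MT2A or are inserted relative to it, and MT2A itself is in lower case.
MT2A: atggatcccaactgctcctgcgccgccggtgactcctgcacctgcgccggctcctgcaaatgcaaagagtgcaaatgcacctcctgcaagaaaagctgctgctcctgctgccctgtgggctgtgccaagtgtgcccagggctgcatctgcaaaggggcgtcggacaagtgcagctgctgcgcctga
MT1E: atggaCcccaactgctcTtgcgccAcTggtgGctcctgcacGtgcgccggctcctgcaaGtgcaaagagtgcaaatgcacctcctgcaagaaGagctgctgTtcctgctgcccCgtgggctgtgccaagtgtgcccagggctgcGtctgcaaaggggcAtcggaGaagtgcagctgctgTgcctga
MT1L: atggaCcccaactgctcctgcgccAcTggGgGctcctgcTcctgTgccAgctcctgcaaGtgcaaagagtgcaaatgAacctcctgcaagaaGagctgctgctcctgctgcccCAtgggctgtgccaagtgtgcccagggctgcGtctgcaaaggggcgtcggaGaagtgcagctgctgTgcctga
MT1X: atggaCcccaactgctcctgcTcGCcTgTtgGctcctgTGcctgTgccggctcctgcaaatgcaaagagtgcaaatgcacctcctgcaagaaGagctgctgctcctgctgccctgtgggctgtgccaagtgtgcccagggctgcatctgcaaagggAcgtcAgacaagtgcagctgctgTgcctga
MT1G: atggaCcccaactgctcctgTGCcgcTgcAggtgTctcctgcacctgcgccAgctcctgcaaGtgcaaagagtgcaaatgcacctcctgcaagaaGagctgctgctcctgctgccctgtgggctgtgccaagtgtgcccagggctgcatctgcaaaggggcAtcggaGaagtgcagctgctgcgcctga

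MT2A, MT1E and MT1X were 186 bases long and MT1G 189. Each held 20 cysteine codons, the residues that bind metal in these proteins. MT1L was also 186 bases long but held 19 cysteine codons, and its first in-frame stop codon was codon 26 of 62. Identity to MT2A was 92.5% for MT1E, 92.5% for MT1X, 93.7% for MT1G and 91.4% for MT1L, and MT1E and MT1L were 94.6% identical to each other. Reads of such near copies can be shared. In the annotated transcripts of the 5 genes, 3.73% to 16.4% of all distinct stretches of 50 bases were also found in the transcripts of another gene, and 0 of those of 150 bases, the length of 1 read, were. Genes that overlap a member on the chromosome were left out of this search. MT1L had 37 distinct stretches of 150 bases, where each other member had at least 891, so the search says little about MT1L. Per the study's methods, counting kept only reads that mapped uniquely, so pieces that fit more than 1 gene equally would be left out. Each member's count is uncertain to that extent. The gene models of MT1L and MT1X each overlap a long noncoding RNA. The one over MT1X had 0 counts in every library. The one over MT1L is not in the count table, so any reads from it cannot be told apart from those of MT1L.

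The promoters of MT2A and MT1X are printed because metal response elements are the best known control sequence of this family. Each covers the 250 bases before the annotated start, from RefSeq on GRCh38.p14, forward strand, with matches to the core of the metal response element in capitals. The letters searched were TGCACNC and TGCGCNC on both strands.
MT2A, chr16:56608334-56608583: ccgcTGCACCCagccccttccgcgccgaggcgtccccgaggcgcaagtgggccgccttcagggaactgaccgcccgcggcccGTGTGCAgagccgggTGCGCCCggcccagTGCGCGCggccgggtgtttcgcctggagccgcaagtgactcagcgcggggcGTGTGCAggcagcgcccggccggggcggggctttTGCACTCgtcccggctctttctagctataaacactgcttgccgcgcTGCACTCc
MT1X, chr16:56682220-56682469: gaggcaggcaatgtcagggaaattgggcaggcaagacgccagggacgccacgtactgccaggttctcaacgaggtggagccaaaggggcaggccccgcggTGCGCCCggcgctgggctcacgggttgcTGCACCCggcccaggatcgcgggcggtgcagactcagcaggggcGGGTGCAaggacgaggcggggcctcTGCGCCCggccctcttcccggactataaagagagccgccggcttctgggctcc

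MT2A held 7 matches and MT1X 4. Among 35116 promoters of the same length, 24.8% held at least 1 match, 0.370% held at least 4 and 0.0313% held at least 7. The core of the antioxidant response element, TGACNNNGC, had 1 match in each and was present in 10.9% of promoters. A match is a description of the letters, and no binding was measured. The RefSeq promoter table had entries for 2 of the 5 genes.

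MT2A was the main metallothionein transcript in these cells. It took 72.3% to 84.1% of the counts of the 5 genes in a library. On a per-length scale, TPM as deposited, its group means ran from 468 to 923, those of MT1L from 193 to 436, those of MT1E from 87.4 to 138 and those of MT1X from 4.40 to 14.4. The TPM of MT1L rests on a short gene length, 0.316 times that of MT2A as implied by the ratio of counts to TPM, so its rank above MT1E on that scale moves with the length used. CPM scaled by the trimmed mean of M-values (TMM), used from here on unless stated, compare 1 gene between groups and not genes with each other.

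**Figure D1:**
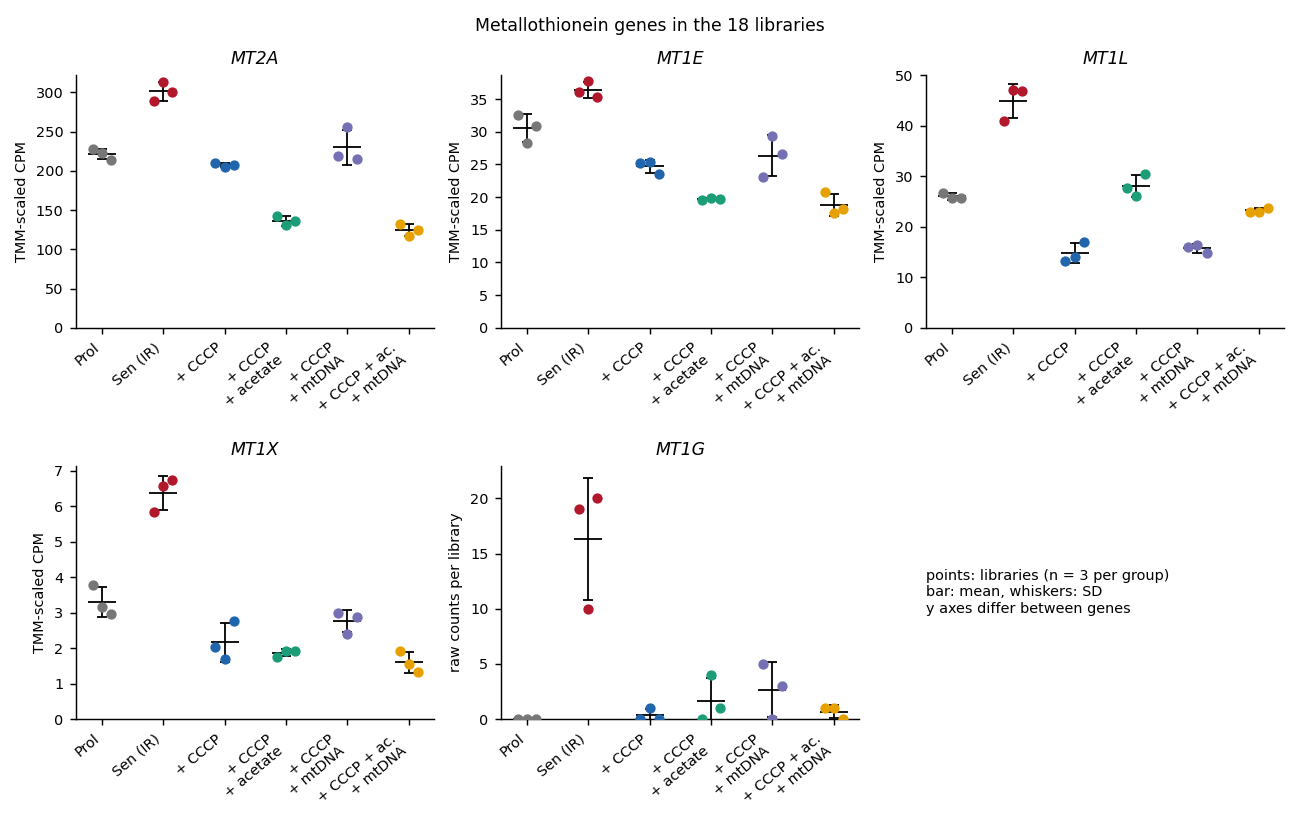
Level of each metallothionein gene in each library, as TMM-scaled CPM for MT2A, MT1E, MT1L and MT1X and as raw counts for MT1G, by group (points are libraries, the bar is the mean and whiskers are the SD, n = 3). The Sen (IR) libraries are the highest for each gene, and MT1L is higher in the 2 groups with acetate than in Sen (IR) + CCCP, while MT2A and MT1E are lower there.

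Irradiation-induced senescence was compared with proliferation first, and MT2A, MT1E, MT1L and MT1X were higher in Sen (IR). MT2A, the most abundant form, stood at 228, 223 and 214 CPM in the Prol libraries and at 289, 313 and 301 CPM in the Sen (IR) libraries. Every Sen (IR) library was above every Prol library. Its log2 fold change was 0.44 ± 0.059 (SE, as for every log2 fold change given here with ±, n = 3 per group, edgeR adjusted p = 1.44e-06). MT1L, the pseudogene, had 26.8, 25.6 and 25.6 CPM in Prol and 40.9, 47.0 and 46.8 CPM in Sen (IR). The groups did not overlap, and the log2 fold change was 0.79 ± 0.078 (edgeR adjusted p = 1.58e-08).

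MT1X, a minor member here, had 3.79, 3.15 and 2.96 CPM in Prol and 5.85, 6.56 and 6.75 CPM in Sen (IR). The lowest Sen (IR) library was above the highest Prol library, and the log2 fold change was 0.96 ± 0.15 (edgeR adjusted p = 1.33e-05). MT1E changed least, from 32.6, 28.3 and 30.9 CPM in Prol to 36.1, 37.7 and 35.3 CPM in Sen (IR), a log2 fold change of 0.25 ± 0.075 (edgeR adjusted p = 0.00766). Its libraries did not overlap, but without Prol replicate 2 the value was 0.20 and missed the threshold (edgeR adjusted p = 0.0509). MT1G was at 0 counts in the 3 Prol libraries and at 19, 10 and 20 counts in the Sen (IR) libraries. Against a floor of 3 counts over the Prol group, MT1G was at least 15.2-fold higher in Sen (IR). This gene was kept only through its Sen (IR) libraries, which reached 10 counts, so that filter fixed in part its difference from the other groups. Its values against Sen (IR) are therefore a description, with no test, and it is left out of the counts of members there.

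Thus 4 of 4 members without MT1G passed the test as higher, where 26.7% of all 16994 tested genes were called higher and 29.9% lower. Their median log2 fold change was 0.62, beside -0.011 for all genes. The fibroblast markers moved the other way in this comparison, with 8 of 10 lower and 0 higher, and their part in the result was not tested. Of all called genes, 47.1% were higher under TMM and 58.2% when libraries were scaled by total counts alone.

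CCCP together with the loss of mitochondria, called removal of mitochondria for short from here on, was compared with Sen (IR) next. MT2A, MT1E, MT1L and MT1X were lower in Sen (IR) + CCCP, and of these 4 MT1L and MT1X had the largest log2 fold changes. MT1L had 13.3, 14.1 and 17.0 CPM in Sen (IR) + CCCP, each under the lowest Sen (IR) library, and its log2 fold change was -1.61 ± 0.081 (n = 3 per group, edgeR adjusted p = 1.37e-13). MT1X had 2.03, 1.69 and 2.76 CPM, a log2 fold change of -1.58 ± 0.16 (edgeR adjusted p = 1.03e-08). For both genes no library of one group reached those of the other.

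MT2A had 210, 204 and 207 CPM in Sen (IR) + CCCP and a log2 fold change of -0.54 ± 0.059 (edgeR adjusted p = 5.15e-08). MT1E had 25.2, 25.4 and 23.6 CPM and a log2 fold change of -0.55 ± 0.076 (edgeR adjusted p = 1.23e-06). Both were below every Sen (IR) library. On log2(TPM + 1) with limma, the values were -0.11 for MT2A and -0.13 for MT1E and missed the threshold (adjusted p = 0.142 and 0.143), while MT1L and MT1X were still called lower. MT1G had 0, 1 and 0 counts. The ratio of Sen (IR) to Sen (IR) + CCCP was 51.7 for MT1G, with a counting interval of 8.85 to 2082. As MT1G was kept only through its Sen (IR) counts, this interval is no test of a difference.

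So 4 of 4 members without MT1G were called lower, where 31.3% of all tested genes were called lower and 34.0% higher, and their median log2 fold change was -1.07 beside 0.026 for all genes. The fibroblast markers were lower too, 10 of 10, with a median of -1.62, and their part in the result was not tested. Of all called genes, 52.1% were higher under TMM and 70.6% under total counts, since that scaling moved the median of all genes to 0.29.

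Against Prol, the depleted cells showed a mixed picture that depended on how libraries were scaled. MT1L was lower, with a log2 fold change of -0.82 ± 0.083 (edgeR adjusted p = 1.00e-08), and its highest Sen (IR) + CCCP library lay below the lowest Prol library. MT1X was lower by TMM, at -0.63 ± 0.17 (edgeR adjusted p = 0.00253), and MT1E at -0.31 ± 0.077 (edgeR adjusted p = 0.00129). MT2A was at -0.094 ± 0.059 and missed the threshold (edgeR adjusted p = 0.165), but it was called lower, at -0.095, when only these 2 groups were fitted (edgeR adjusted p = 0.0142). The 10 fibroblast markers were all called lower here, with a median of -2.44.

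With total counts in place of TMM, MT2A was 0.26 higher on the log2 scale (edgeR adjusted p = 7.03e-04) and MT1E 0.049 higher (edgeR adjusted p = 0.586). On log2(TPM + 1), MT2A was 0.41 higher and MT1E 0.20 higher. The direction of MT2A and MT1E between Sen (IR) + CCCP and Prol thus flipped with the scaling. MT1L stayed called lower under both, at -0.47 with total counts, whereas MT1X, at -0.27, missed the threshold there (edgeR adjusted p = 0.161). By TMM, 3 of 5 members were called lower and 0 higher, where 34.1% and 35.1% of all tested genes were. The median of all genes was 0.030 by TMM and 0.38 by total counts, and the higher share of calls was 50.8% and 72.2%.

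**Figure D2:**
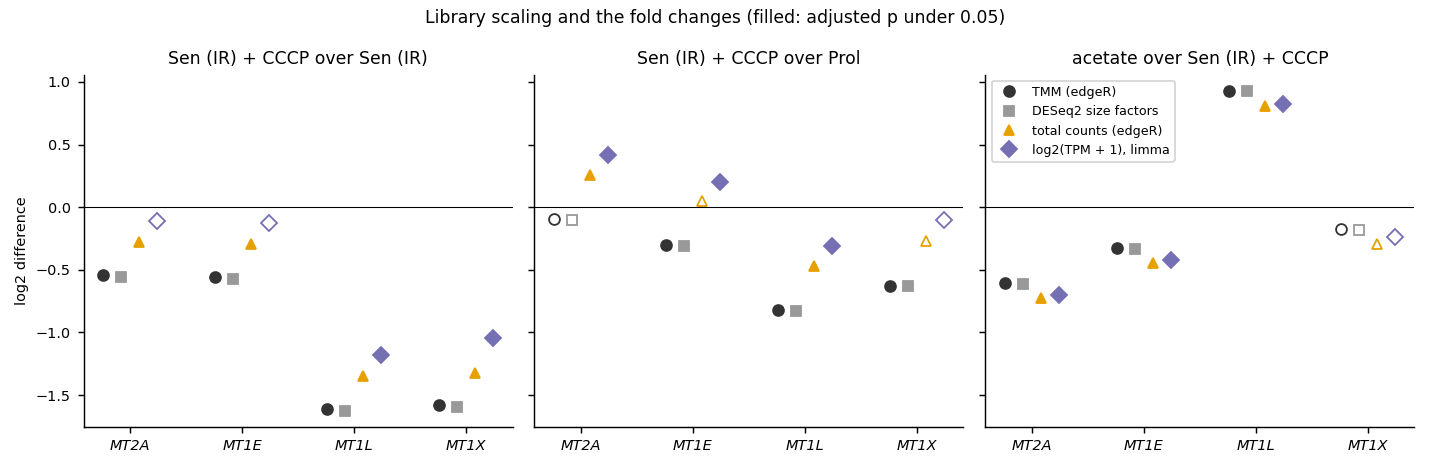
log2 difference of MT2A, MT1E, MT1L and MT1X in 3 comparisons under 4 ways to scale the libraries (symbols), filled where the adjusted p was under 0.05. MT2A and MT1E change sign between TMM and the total-count and TPM scalings for Sen (IR) + CCCP over Prol, and MT1L keeps its sign in each comparison shown.

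With acetate given to the depleted cells, MT2A and MT1E were lower and MT1L was higher, so these genes differed in opposite directions. MT2A had 143, 130 and 136 CPM with acetate, below the 3 Sen (IR) + CCCP libraries, and its log2 fold change was -0.61 ± 0.060 (n = 3 per group, edgeR adjusted p = 1.49e-08). MT1E had 19.6, 19.8 and 19.8 CPM, a log2 fold change of -0.33 ± 0.077 (edgeR adjusted p = 9.80e-04). Here, too, the groups did not overlap. MT1L had 27.6, 26.1 and 30.4 CPM with acetate, each above the highest Sen (IR) + CCCP library, and its log2 fold change was 0.93 ± 0.081 (edgeR adjusted p = 2.09e-09).

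MT1X, at 1.76, 1.92 and 1.93 CPM, overlapped with Sen (IR) + CCCP and had a log2 fold change of -0.18 with a 95% interval of -0.54 to 0.19 (edgeR adjusted p = 0.413). Leaving out Sen (IR) + CCCP replicate 3, the library highest in MT1X within its group, put it at 0.036. MT1G had 0, 4 and 1 counts with acetate and 0, 1 and 0 without. Of the 5 members, 1 was called higher and 2 lower, where 28.8% and 28.3% of all tested genes were. Among 5 genes, these counts were near the shares of all genes. Total counts gave 0.81 for MT1L and -0.73 for MT2A, so the opposite directions held. Of the fibroblast markers 4 were higher and 5 lower, of 3 endothelial markers tested 2 were lower, and the 2 immune markers tested were higher, at a summed level of 0.780 to 0.944 CPM without acetate and 2.18 to 2.31 CPM with it. The part of these marker genes in the result was not tested, and their calls do not show that such cells were present. Of all called genes, 50.5% were higher under TMM and 37.1% under total counts.

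Compared with Sen (IR), the acetate-treated depleted cells had lower levels of 4 of 4 members without MT1G, all called, where 32.7% of tested genes were called lower and 33.2% higher. Of the 10 fibroblast markers, 8 were lower and 1 higher. The log2 fold changes were -1.14 ± 0.060 for MT2A, -0.88 ± 0.076 for MT1E, -0.68 ± 0.076 for MT1L and -1.76 ± 0.16 for MT1X (edgeR adjusted p from 2.55e-13 to 6.38e-08 for these 4). MT1L with acetate, 28.0 ± 2.18 CPM (SD, n = 3), lay between Sen (IR) + CCCP at 14.8 ± 1.95 CPM and Sen (IR) at 44.9 ± 3.45 CPM, whereas MT2A, at 136 ± 6.14 CPM, was below both. For all genes, 50.4% of calls were higher under TMM and 61.1% under total counts. MT1G was 12.2-fold higher in Sen (IR) than with acetate, with a counting interval of 4.90 to 39.4. Here, too, the filter favoured Sen (IR), and the interval is no test of a difference.

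**Figure D3:**
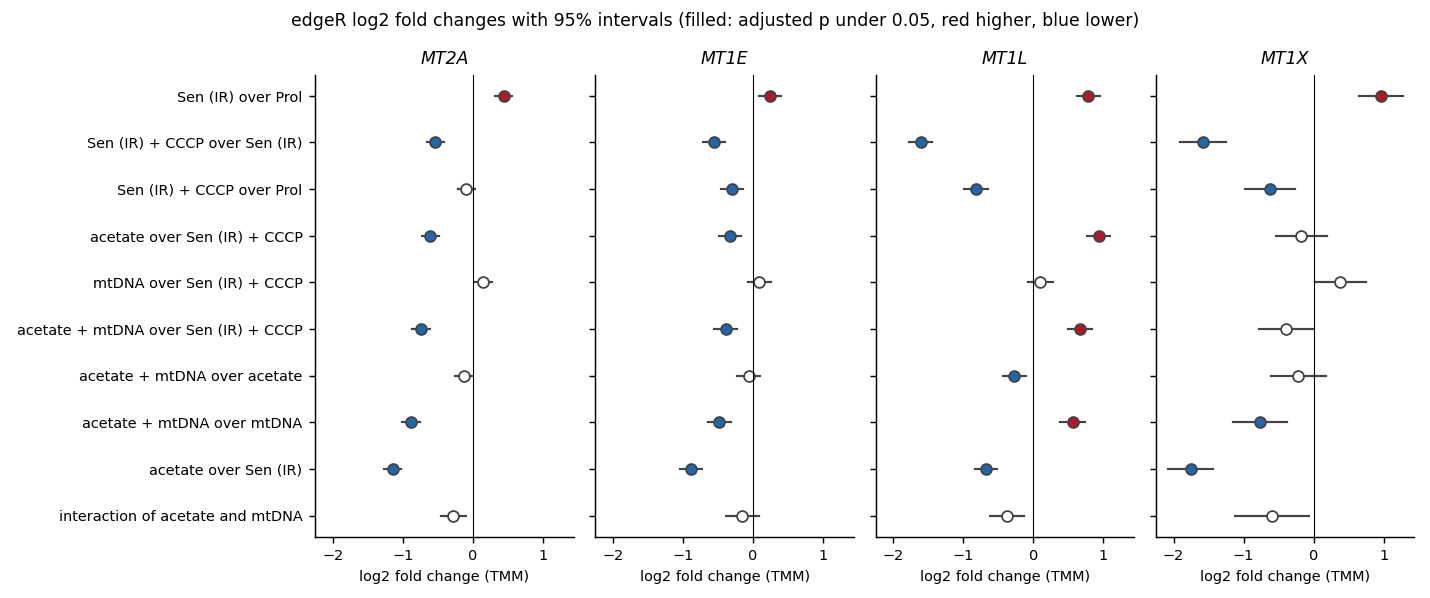
edgeR log2 fold changes of MT2A, MT1E, MT1L and MT1X in the 9 comparisons and the interaction, with 95% intervals (horizontal lines), filled red where higher and blue where lower at an adjusted p under 0.05. MT1L lies to the right of 0 for acetate over Sen (IR) + CCCP, where MT2A and MT1E lie to the left.

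With transfected mtDNA alone, none of the metallothionein genes passed the test. MT2A had 219, 256 and 215 CPM, each above the 3 Sen (IR) + CCCP libraries, and its log2 fold change was 0.15 ± 0.059 (edgeR adjusted p = 0.0899). MT1E at 0.090 ± 0.077, MT1L at 0.10 ± 0.086 and MT1X at 0.38 ± 0.17 also missed the threshold (edgeR adjusted p = 0.484, 0.488 and 0.148). Intervals of 95% ran from -0.071 to 0.25 for MT1E and from -0.079 to 0.28 for MT1L. MT1G had 5, 0 and 3 counts.

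By edgeR 0 of 5 members were called, where 18.1% of all tested genes were called in either direction. At an unadjusted p under 0.05, 3 were higher, MT2A, MT1G and MT1X, and the DESeq2 Wald test also called 0. The call depended on single libraries. Without Sen (IR) + CCCP + mtDNA replicate 3, MT2A was at 0.20 (edgeR adjusted p = 0.0445), and without Sen (IR) + CCCP replicate 3, MT1X was at 0.58 (edgeR adjusted p = 0.0328). Of all called genes, 59.1% were higher under TMM and 35.7% under total counts.

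With acetate and mtDNA together, MT2A and MT1E were again lower and MT1L higher than in Sen (IR) + CCCP, the reference group that this comparison shares with those of acetate alone and mtDNA alone. MT2A had 132, 117 and 125 CPM, MT1E 20.8, 17.5 and 18.2 CPM and MT1L 23.0, 22.9 and 23.8 CPM. Against Sen (IR) + CCCP, MT2A was at -0.74 ± 0.060 and MT1E at -0.39 ± 0.079, and MT1L was at 0.66 ± 0.083 (edgeR adjusted p = 6.52e-10, 1.99e-04 and 4.87e-07). In none of these genes did the groups overlap. MT1X was at -0.39 ± 0.19 and missed the threshold (edgeR adjusted p = 0.0762), but passed it under total counts at -0.57 (edgeR adjusted p = 0.0129) and on log2(TPM + 1) at -0.47 (limma adjusted p = 0.0103). It also passed on leaving out Sen (IR) + CCCP replicate 2, at -0.53, or acetate + mtDNA replicate 1, at -0.54 (edgeR adjusted p = 0.0252 and 0.0393). Thus 1 member was called higher and 2 lower, where 30.3% and 31.4% of tested genes were. These counts, too, were near the shares of all genes. Total counts put 32.3% of all calls on the higher side, against 49.1% under TMM.

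Acetate in the presence of mtDNA used no library of the comparison of acetate with Sen (IR) + CCCP. MT2A was at -0.89 ± 0.060, MT1E at -0.48 ± 0.080 and MT1X at -0.77 ± 0.19, and MT1L was at 0.56 ± 0.084 (edgeR adjusted p = 4.43e-11, 2.20e-05, 0.00116 and 5.78e-06). The 4 genes had no overlap between groups. Here 1 of 5 members was called higher and 3 lower, where 27.4% and 29.9% of tested genes were. Of all called genes, 47.8% were higher under TMM and 36.2% under total counts.

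Adding mtDNA to acetate changed 1 member, MT1L, from 28.0 ± 2.18 to 23.2 ± 0.457 CPM (SD, n = 3), a log2 fold change of -0.27 ± 0.079 (edgeR adjusted p = 0.0263). It was 1 of 5 members called in either direction, where 12.6% of tested genes were. The 6 libraries did not overlap. The MT1L call did not survive leaving out replicate 1 or 3 of the acetate group, or replicate 1 or 2 of the acetate + mtDNA group (edgeR adjusted p = 0.0511, 0.160, 0.0687 and 0.0544). MT2A was at -0.13 with a 95% interval of -0.25 to -0.0048 (edgeR adjusted p = 0.169). The share of all calls that were higher was 52.2% under TMM and 29.1% under total counts.

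The interaction asks whether mtDNA acted differently with and without acetate. No member passed, where 0.659% of tested genes did, with values of -0.28 ± 0.085 for MT2A, -0.15 ± 0.11 for MT1E, -0.37 ± 0.12 for MT1L and -0.60 ± 0.26 for MT1X (edgeR adjusted p = 0.157, 0.646, 0.180 and 0.362). At an unadjusted p under 0.05, 3 were lower, and the DESeq2 Wald test also called 0.

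Because the scaling of libraries moves these levels, ratios of metallothionein counts within each library were also taken, which no scaling changes. This ratio was chosen after the values were seen. MT1L counts per 100 MT2A counts were 11.7 ± 0.247 in Prol, 14.9 ± 0.719 in Sen (IR), 7.13 ± 0.964 in Sen (IR) + CCCP, 20.6 ± 1.59 with acetate, 6.88 ± 0.439 with mtDNA and 18.7 ± 1.12 with both (SD, n = 3 each). The groups with acetate were the highest and did not overlap with any group without it. Between Sen (IR) + CCCP and acetate the ratio differed 2.90-fold (two-sided exact permutation test, p = 0.1, the smallest that 3 against 3 can give, among 27 such ratio comparisons). In the presence of mtDNA, acetate was associated with a 2.72-fold difference in the same direction (exact permutation p = 0.1).

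MT1E moved far less against MT2A, from 11.9 ± 0.532 counts per 100 MT2A counts in Sen (IR) + CCCP to 14.5 ± 0.719 with acetate, a 1.21-fold difference (exact permutation p = 0.1). MT1X per 100 MT2A counts was 2.12 ± 0.114 in Sen (IR) and 1.04 ± 0.259 in Sen (IR) + CCCP, with no overlap. Across the 18 libraries, Pearson's r of log2 CPM was 0.946 for MT2A with MT1E and 0.860 with MT1X, but 0.209 with MT1L. These correlations describe 18 libraries in 6 groups that share treatments and carry no p. MT1L with MT1X gave 0.600.

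**Figure D4:**
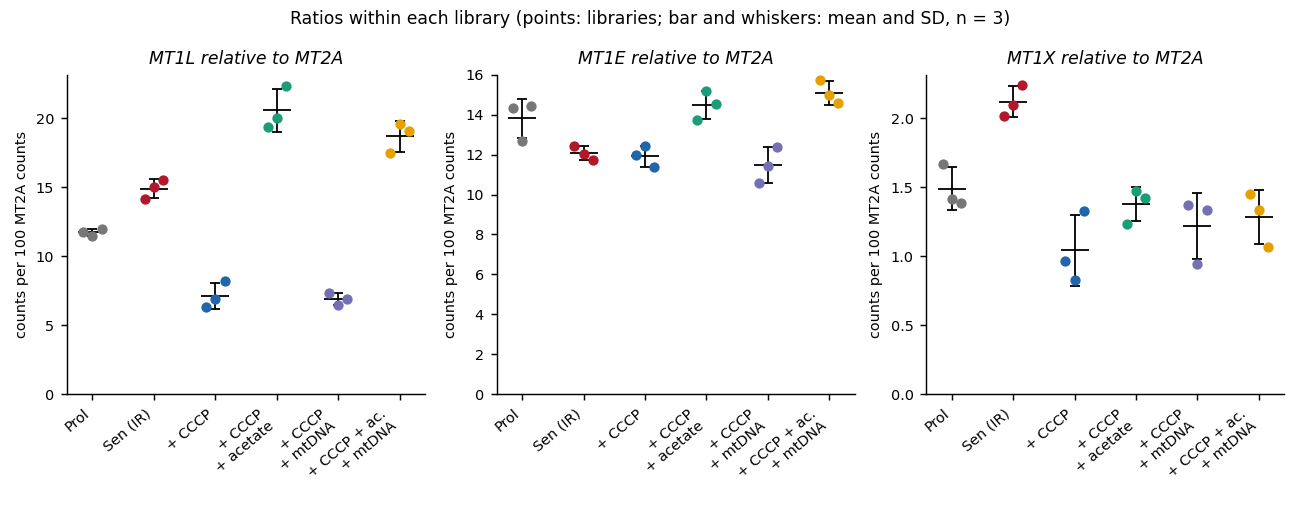
Counts of MT1L, MT1E and MT1X per 100 MT2A counts in each library (points), by group, with mean (bar) and SD (whiskers), n = 3. For MT1L the 2 groups with acetate sit at 17.5 to 22.4, above the other 4 groups, which sit at 6.31 to 15.6.

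The genes whose levels followed MT2A most closely over the 18 libraries were VDAC1, a channel of the mitochondrial outer membrane (r = 0.982), the glycolytic enzyme GAPDH (0.979), KDELR1 (0.978), the mitochondrial peroxiredoxin PRDX3 (0.977) and RAB2A (0.976). For MT1X they included AMIGO1 (0.949), TMBIM4 (0.944), LINC00888 (0.940) and the cytosolic peroxiredoxin PRDX2 (0.939). For MT1L, taken after its values were seen, they were PDK2 (0.966), TMEM184B (0.960), H2AFJ (0.954), OLR1 (0.954) and NAP1L5 (0.953). Each gene named here was picked for its high rank among 16993 genes. The r values describe 18 libraries in 6 groups that share treatments, and they carry no p. MT1E ranked 56 and MT1X 441 among 16993 genes by correlation with MT2A, and MT1L ranked 6611.

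Zinc handling was then described from lists of other genes. MTF1, the zinc-responsive activator of metallothionein genes, had group means of 24.6 ± 0.875 CPM in Prol, 32.7 ± 2.53 in Sen (IR) and 41.9 ± 0.478 in Sen (IR) + CCCP (SD, n = 3). It was higher in Sen (IR) than in Prol, at 0.41 ± 0.061 (edgeR adjusted p = 7.07e-06), and higher again in Sen (IR) + CCCP, at 0.36 ± 0.059 (edgeR adjusted p = 1.35e-05). In both steps no library of the lower group reached the higher one. With acetate MTF1 was at 0.083 ± 0.057 (edgeR adjusted p = 0.227), which turned to -0.039 under total counts, and with mtDNA at 0.15 ± 0.058 (edgeR adjusted p = 0.0877).

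SLC30A1, which exports zinc from the cell and is itself an MTF1 target, had 69.0, 66.6 and 66.8 CPM in Prol, 112, 107 and 104 in Sen (IR) and 176, 184 and 179 in Sen (IR) + CCCP. These 3 groups did not overlap. SLC30A1 was 0.68 ± 0.046 higher with senescence (edgeR adjusted p = 4.12e-11) and another 0.74 ± 0.045 higher after removal of mitochondria (edgeR adjusted p = 3.21e-12), both as log2 fold changes. In the second step SLC30A1 was higher while MT2A, MT1E, MT1L and MT1X were lower. With acetate it was -0.31 ± 0.044 (edgeR adjusted p = 2.77e-06), the same sign as MT2A, with mtDNA 0.20 ± 0.044 (edgeR adjusted p = 0.00304), and with acetate in the presence of mtDNA -0.37 ± 0.044 (edgeR adjusted p = 3.26e-07).

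SLC39A10, a zinc importer that zinc is known to repress, had 118 ± 3.02 CPM in Prol, 102 ± 6.99 in Sen (IR), 132 ± 4.52 in Sen (IR) + CCCP and 79.5 ± 2.55 with acetate. Its log2 fold changes were -0.20 ± 0.049, 0.37 ± 0.049 and -0.74 ± 0.049 for these 3 steps (edgeR adjusted p = 0.00132, 5.93e-07 and 2.35e-11). With mtDNA it was -0.24 ± 0.048 (edgeR adjusted p = 0.00115). SLC39A8, a zinc and manganese importer at low level, had 0.464 ± 0.0865 CPM in Prol, 7.04 ± 0.502 in Sen (IR), 2.95 ± 0.430 in Sen (IR) + CCCP and 0.633 ± 0.203 with acetate. Its log2 fold change was 3.95 ± 0.22 for Sen (IR) over Prol and -2.27 ± 0.22 for acetate over Sen (IR) + CCCP (edgeR adjusted p = 2.08e-12 and 9.24e-09).

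**Figure D5:**
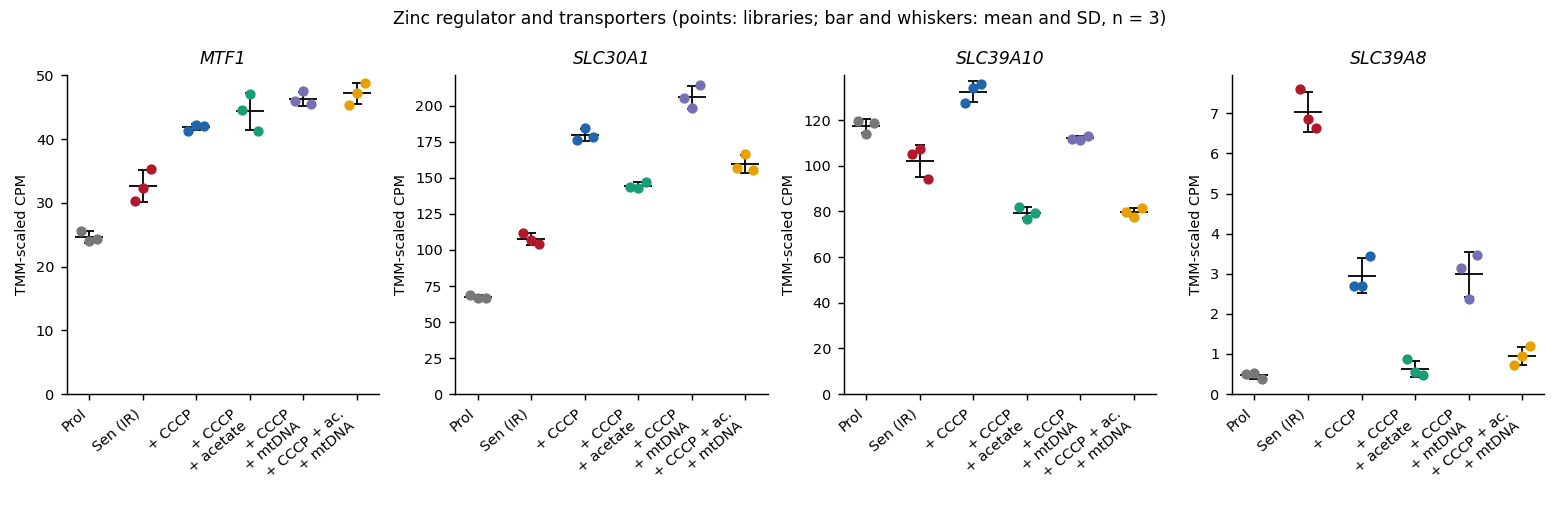
TMM-scaled CPM of MTF1, SLC30A1, SLC39A10 and SLC39A8 in each library (points), by group, with mean (bar) and SD (whiskers), n = 3. SLC30A1 is higher in each of the 4 groups given CCCP than in Sen (IR), and SLC39A8 is highest in Sen (IR).

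Counts of these lists were set beside all tested genes, of which 26.7% were called higher and 29.9% lower in Sen (IR) over Prol, 34.0% and 31.3% after removal of mitochondria and 28.8% and 28.3% with acetate. MTF1 and the zinc exporters, 7 of 10 tested, had 6 higher and 0 lower in Sen (IR) over Prol, with a median log2 fold change of 0.36, SLC30A7 being the next largest at 0.41. Removal of mitochondria left 2 higher and 3 lower, SLC30A5 among the latter at -0.65. Acetate gave 2 higher, SLC30A4 at 0.26 being the larger, and 1 lower. Among 7 genes, the counts after removal of mitochondria and with acetate were near the shares of all genes. The zinc importers, 11 of 14 tested, had 7 higher and 1 lower in Sen (IR), then 1 higher and 8 lower after removal of mitochondria, with medians of 0.37 and -0.79. SLC39A14, an importer of zinc and iron, rose by 1.02 on the log2 scale and then fell by 1.38, and SLC39A4, at under 1.1 CPM in every group, fell by 1.42 in the second step. With acetate 2 importers were called higher and 5 lower. SLC39A14 was 0.83 ± 0.062 higher (edgeR adjusted p = 1.83e-10), from 129 to 230 CPM with no overlap. SLC39A4 was 1.01 higher there, with overlapping groups, and was no longer called without Sen (IR) + CCCP replicate 1 (0.76) or 3 (0.85) or acetate replicate 3 (0.68), while without Sen (IR) + CCCP replicate 2 it was 1.69.

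Among 14 of 15 copper genes tested, 7 were higher and 1 lower in Sen (IR), 1 higher and 8 lower after removal of mitochondria, and 7 higher and 1 lower with acetate. Their median log2 fold changes were 0.34, -0.32 and 0.34, and the shares of all genes called in each direction were 26.7% to 34.0%. The copper-transporting ATPase ATP7B fell by 2.04 on the log2 scale in the second comparison, from 10.1 to 2.45 CPM, and CP, the copper-carrying plasma protein ceruloplasmin, fell by 2.58 at under 0.5 CPM. The CP value rested on few counts, 12, 19 and 14 in Sen (IR) and 0, 7 and 1 in Sen (IR) + CCCP, and without Sen (IR) + CCCP replicate 2 it was -4.61. STEAP1 and STEAP2 were 0.98 and 1.47 higher with acetate, and STEAP1 and SLC31A2 were 2.61 and 0.89 higher in Sen (IR) over Prol, each at under 2 CPM. STEAP1 with acetate was no longer called on leaving out Sen (IR) + CCCP replicate 2 (0.63, edgeR adjusted p = 0.0591).

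Heat-shock and metal-stress genes, 17 of 17 tested, had 10 higher and 1 lower in Sen (IR) over Prol, where HMOX1, heme oxygenase, was 1.75 higher and NQO1, a quinone reductase, 1.68 higher. Removal of mitochondria gave 7 higher and 7 lower, with HSPA6, an inducible chaperone at 0.250 CPM in Sen (IR) and 1.72 CPM in Sen (IR) + CCCP, 2.73 higher, while HSPB1 fell by 1.95. Acetate gave 8 higher and 4 lower, NQO1 being 1.81 higher while HSPA6 fell by 2.32. The medians were 0.43, 0.056 and 0.12. Glucocorticoid-responsive genes, 11 of 12 tested, had 2 higher and 6 lower in Sen (IR), 6 higher and 5 lower after removal of mitochondria and 6 higher and 3 lower with acetate, with medians of -0.30, 0.49 and 0.30. Of all genes, 26.7% to 34.0% were called in each direction in these comparisons. ERRFI1 fell by 1.26 and by 1.64 in the first 2 of these. HSD11B1, which regenerates active cortisol, had 0, 1 and 0 counts in Prol, 26, 29 and 21 in Sen (IR) and 1, 1 and 4 in Sen (IR) + CCCP. The fitted HSD11B1 values ran from 5.14 to 7.73 for the first comparison and from -4.73 to -3.26 for the second as single libraries were left out, with 7.73 reached without Prol replicate 2 and -4.73 without Sen (IR) + CCCP replicate 3. With acetate KLF9 rose by 1.24 and CEBPD fell by 1.17. These values are edgeR log2 fold changes past the threshold.

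With mtDNA, where 18.1% of all tested genes were called in either direction, 2 of the 7 genes of MTF1 and the zinc exporters were higher (SLC30A4 at 0.32 and SLC30A1), and of 11 importers 1 was higher (SLC39A14 at 0.36) and 1 lower. Of 14 copper genes 2 were higher (SCO2 at 0.40 and SLC31A1 at 0.27), of 17 stress genes 3 (HMOX1 at 0.64 and HSPA1B at 0.33 the largest), and of 11 glucocorticoid-responsive genes 4 (KLF9 at 0.84 and DUSP1 at 0.56 the largest). SCO2 was no longer called on leaving out Sen (IR) + CCCP replicate 3 or mtDNA replicate 1 or 2 (edgeR adjusted p = 0.0935, 0.0839 and 0.0535). Of 8 neighbours of the cluster on chromosome 16, 6 were tested. In Sen (IR) over Prol 4 were higher, among them OGFOD1 at 0.37, and 1 was lower, where 26.7% and 29.9% of all tested genes were. After removal of mitochondria 1 was higher, NUDT21 at 0.52, and 4 lower, HERPUD1 at -0.83 the largest. Of all tested genes, 34.0% were higher and 31.3% lower there. With acetate HERPUD1 and BBS2 were 0.42 and 0.35 higher and 1 was lower, where 28.8% and 28.3% of all tested genes were. With mtDNA HERPUD1 and OGFOD1 were 0.54 and 0.15 higher. The OGFOD1 call with mtDNA was lost without replicate 3 of either group (edgeR adjusted p = 0.0758 and 0.0621) and under total counts (edgeR adjusted p = 0.186).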

How the data were processed

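RNA-seq libraries of polyA RNA (read pairs of 150 bases) were analysed from 2 tables. The authors deposited raw counts per gene and TPM values. The submitters' processing notes name Trimmomatic 0.36, STAR 2.5.2b, featureCounts of Subread 1.5.2 and GRCh38, and strandedness was not given in the sources used here. Genes without a symbol took 0.0128% to 0.0200% of counts.

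The main test was edgeR 4.0.16 (quasi-likelihood, TMM, filterByExpr, R 4.3.3) on counts, with 18 libraries in 1 model of 6 group means and Benjamini-Hochberg adjustment over 16994 genes at 0.05. limma 3.58.1 on log2(TPM + 1) and log2(TPM + 0.1) and DESeq2 1.42.0 were alternatives, with other filters, scalings, a replicate block and left-out libraries. Scaling by total counts was added after seeing the data. Fold changes on log2(TPM + pseudocount) understate low genes. The count model was also run on data simulated from its own fitted spread, with changes put in the acetate group only. That run tells nothing about the call of any member. MT1G bounds use a floor of 3 counts over the group, and its intervals (95%, exact) cover counting error only. Replicates of a group differed beyond sampling noise (chi-square per degree of freedom 2.77 to 28.2). The highest values came from pairs with Sen (IR) replicate 3 (27.2 and 22.1) and with acetate + mtDNA replicate 2 (28.2 and 24.7). All other pairs were at 2.77 to 7.69.

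The members and the lists were chosen with earlier results of these data known. Named were the members, MTF1, SLC30A1, SLC39A10, the 2 genes of each list with the largest called change in a comparison (given for 4 comparisons), and the 5 genes most correlated with MT2A and with MT1X; 2 genes that this rule names are not reported here. SLC39A8, SLC39A14 with acetate and the genes most like MT1L were described further after their values were seen.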

Additional observations from a re-analysis of the deposited data

How the results depend on the processing

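Of 709 alternative values for single metallothionein genes, 682 kept direction and side of the threshold, 12 lost it, 8 gained it and 7 changed sign. Of 1110 for the other named genes, 1063 kept both, 31 lost the call, 2 gained it and 14 changed sign. For Sen (IR) + CCCP over Sen (IR), limma called 3 members lower on log2(TPM + 1) and 3 on log2(TPM + 0.1), against 5. Each of these counts included MT1G, whose call against Sen (IR) the filter fixed in part. For Sen (IR) + CCCP over Prol, total counts called 1 higher and 1 lower, and both TPM scales 2 higher and 1 lower, against 0 and 3. There MT2A turned to 0.26 under total counts and to 0.41 on both TPM scales, and MT1E to 0.049, 0.20 and 0.20. Scaling by construction sets these values, since the median of all genes moved to 0.38 under total counts. MT1X for acetate over Sen (IR) + CCCP ran from -0.32 to 0.036 when single libraries were left out, turning without Sen (IR) + CCCP replicate 3. Leaving out single libraries gave 0 to 1 members higher for mtDNA over Sen (IR) + CCCP, 0 to 1 lower for acetate + mtDNA over acetate, 2 to 3 lower for acetate + mtDNA over Sen (IR) + CCCP (MT1X without Sen (IR) + CCCP replicate 2 or acetate + mtDNA replicate 1), and, with MT1G, 4 to 5 higher for Sen (IR) over Prol.

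MTF1 turned to -0.039, -0.016 and -0.017 for acetate over Sen (IR) + CCCP, and to -0.085, -0.033 and -0.034 for acetate + mtDNA over mtDNA (total counts, then both TPM scales), and to -0.0066 for acetate + mtDNA over Sen (IR) + CCCP under total counts. SLC39A10 for acetate + mtDNA over acetate, at 0.0040, turned to -0.052 under total counts, -0.0077 without a filter, -0.0053 with at least 10 counts in every library, -0.031 on both TPM scales, and ran from -0.018 to 0.029 when single libraries were left out. Where not stated, the cause was not tested.

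Replicate numbers did not pair the libraries. Same-numbered libraries correlated at r = -0.079 to 0.081 over 45 pairs, and 4 of 18 libraries matched best with their own number. With the replicate block, 5 members, MT1G included, were higher in Sen (IR) over Prol, and the block changed no call of a member. In each count against Sen (IR) that includes MT1G, the filter fixed the MT1G call in part, so that call is no support. Depth limits MT1G, whose counts outside Sen (IR) were 0 to 5. MT1G has no value with at least 10 counts in every library.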
